A study of Mus musculus with 2 samples.

Results

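Krüppel-like factors (KLF) are transcription factors encoded by the Klf genes. The 10 genes described here, Klf2, Klf3, Klf4, Klf5, Klf6, Klf7, Klf9, Klf10, Klf13 and Klf15, were taken by name, each had to be present in both the gene and the transcript tables, and all 10 were found among 43346 Ensembl gene entries. They are part of a family of 17 Klf genes that was searched in full. RNA was measured by total RNA sequencing of whole intestine from B6NCrl mouse embryos, 15.5 days old (E15.5), healthy and of mixed sex. The samples form 1 group of 2 libraries: replicate 1 pooled 78 embryos and replicate 2 pooled 62 embryos. There was no genetic change, treatment or second age, so no test between conditions could be made and n = 2 for every mean and standard deviation (SD). A library averages over many embryos, and the difference between the libraries is a difference between pools.

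KLF proteins bind GC-rich and CACCC-like sequences in promoters and enhancers through zinc fingers at their C-terminal end. Outside the fingers they differ, and those regions recruit partners: some members mainly activate transcription with histone acetyltransferases, others repress through CtBP, and a further group represses through Sin3 and histone deacetylases. In the gut, Klf5 is known from proliferating epithelial cells and Klf4 from differentiated ones, including goblet cells.

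The finger-coding sequence is what the family shares, and it is shown here for the most abundant member of each partner class and for the closest pair of members. A coding stretch of 243 bases with the spacing of 3 zinc fingers was found in a transcript of all 10 members, on GRCm38 with GENCODE M21 transcripts. It lies at chr14:99302242-99313320 (+ strand, exons 2 to 4) for Klf5, at chr5:64827198-64829146 (+ strand, exons 5 to 6) for Klf3 and at chr15:38295995-38296687 (− strand, exons 3 to 4) for Klf10. For Klf15 it lies at chr6:90467408-90474246 (+ strand, exons 2 to 3), for Klf6 at chr13:5865272-5867277 (+ strand, exons 2 to 4) and for Klf7 at chr1:64035719-64078779 (− strand, exons 2 to 4), introns included in each range. Capitals mark the 12 codons for the cysteines and histidines that hold the zinc.
Klf5, activator-type: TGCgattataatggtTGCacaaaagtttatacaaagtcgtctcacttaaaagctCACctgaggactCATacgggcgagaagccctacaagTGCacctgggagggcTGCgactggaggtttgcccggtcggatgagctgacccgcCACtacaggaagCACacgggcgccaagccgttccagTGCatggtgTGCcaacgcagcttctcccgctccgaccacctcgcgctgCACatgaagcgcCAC
Klf3, CtBP-binding: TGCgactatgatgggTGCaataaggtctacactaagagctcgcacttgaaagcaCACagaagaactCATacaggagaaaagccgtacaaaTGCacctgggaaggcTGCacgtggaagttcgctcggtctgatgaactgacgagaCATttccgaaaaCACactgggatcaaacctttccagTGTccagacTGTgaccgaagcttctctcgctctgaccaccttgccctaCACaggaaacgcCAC
Klf10, Sin3-binding: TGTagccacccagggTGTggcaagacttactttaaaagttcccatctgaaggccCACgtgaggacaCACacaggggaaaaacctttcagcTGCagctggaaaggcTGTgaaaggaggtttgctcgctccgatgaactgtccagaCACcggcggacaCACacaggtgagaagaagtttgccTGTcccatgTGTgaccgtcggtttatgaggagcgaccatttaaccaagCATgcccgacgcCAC
Klf15, other: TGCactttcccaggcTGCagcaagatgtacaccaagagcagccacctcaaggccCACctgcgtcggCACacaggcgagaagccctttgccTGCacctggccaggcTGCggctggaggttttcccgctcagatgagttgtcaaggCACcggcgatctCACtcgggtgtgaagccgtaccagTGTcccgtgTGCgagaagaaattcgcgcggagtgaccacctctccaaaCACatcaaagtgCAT
Klf6, activator-type: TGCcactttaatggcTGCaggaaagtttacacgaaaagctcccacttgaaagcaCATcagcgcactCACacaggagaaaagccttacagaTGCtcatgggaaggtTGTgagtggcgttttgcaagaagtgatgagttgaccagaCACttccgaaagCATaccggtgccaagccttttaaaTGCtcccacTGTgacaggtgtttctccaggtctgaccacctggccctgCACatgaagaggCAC
Klf7, activator-type: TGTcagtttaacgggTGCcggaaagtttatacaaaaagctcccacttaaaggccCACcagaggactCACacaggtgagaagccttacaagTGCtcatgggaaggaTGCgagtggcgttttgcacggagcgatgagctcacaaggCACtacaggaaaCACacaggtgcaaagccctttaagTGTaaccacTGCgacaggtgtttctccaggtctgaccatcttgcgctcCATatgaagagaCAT
Over the 45 pairs of members the identity of these stretches had a median of 64.2% and ranged from 57.2% to 81.1%. Klf6 and Klf7 were the closest pair at 81.1%, followed by Klf2 and Klf4 at 78.2%. Set against all family genes, 8 of 10 members had their closest relative in their own partner class, and the exceptions were Klf5, closest to Klf12 at 74.5%, and Klf15, closest to Klf11 at 66.7%. Outside the list, the same held for Klf1, Klf8, Klf11, Klf12, Klf14 and Klf16 but not for Klf17, so this is not particular to the members. No pair of members shared a run of 31 bases in this stretch, and the longest shared run was 26 bases, between Klf6 and Klf7. Over whole transcripts, the members that shared a stretch of 100 bases with any other gene of the annotation were Klf3 (5.79% of its 100-base words) and Klf7 (37.0%). Both shared it with a long non-coding gene on the opposite strand, Gm20033 at 0.83 and 1.17 TPM for Klf3 and Gm26649, listed at 0, for Klf7. Whether reads were counted by strand is unknown here, so reads from Klf3 or Klf7 and from these partners may not have been told apart. For words of 31 bases, Klf5 (2.98% of its words), Klf4 (2.00%) and Klf13 (0.787%) also shared some with other genes. Klf2, Klf6, Klf9, Klf10 and Klf15 shared none.

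The deposited tables held 34406872 and 40669822 estimated counts, of which 33665128 and 39953610 fell on mouse genes. Between 252 and 4737 counts lay behind each member's value. Levels are given in TPM, an abundance divided by transcript length and scaled to the same total in each library, with replicate 1 first and replicate 2 second. Levels of different genes can therefore be compared, as far as the deposited gene models hold. Markers of cell types were taken from lists chosen with earlier results of these data known. All 7 gut epithelium genes (2814 and 2707 TPM summed), all 5 smooth muscle genes (2793 and 2795) and all 5 mesenchyme genes (2846 and 3192) reached a TPM of 1 in both libraries. That limit was reached by 62.7% of protein-coding genes, and the marker counts are no test of the tissue. Endothelium (5 of 5 genes, 109.5 and 111.6 TPM), enteric neuron (5 of 5, 210.9 and 226.6), glia (4 of 4, 72.9 and 83.6), macrophage (4 of 4, 129.9 and 123.0) and red cell genes (5 of 5, 17737 and 17553) were also detected, while all 3 T cell genes stayed below 1. By mean TPM the lowest and highest genes were Cdx2 (30.98) and Cldn7 (847.8) in gut epithelium, Des (90.02) and Acta2 (1274) in smooth muscle, and Pdgfra (26.8) and Col3a1 (1400) in mesenchyme. They were Tek (9.25) and Pecam1 (39.98) in endothelium, Adgre1 (4.76) and C1qb (56.7) in macrophages, and Cd3d (0.03) and Cd3e (0.875) in T cells. The highest genes were Uchl1 (72.5) in enteric neurons, Fabp7 (41.4) in glia and Hba-a2 (9374) in red cells. Genes of organs outside the gut were unequal between the pools. The 4 exocrine pancreas genes summed to 3726 and 1321 TPM, the 3 liver genes to 345.1 and 250.9, and the 3 skeletal muscle genes to 9.45 and 25.3. The lowest and highest means were those of Prss2 (88.8) and Ctrb1 (1767) for pancreas, Alb (54.6) and Afp (166.7) for liver, and Myog (0.70) and Acta1 (11.7) for skeletal muscle. Since the tissue was sequenced whole, fewer cells of a type and less RNA per cell cannot be told apart in any level below.

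All 10 members were detected, defined as 1 TPM or more in each library, a limit that 34.6% of all gene entries and 62.7% of 21474 protein-coding genes reached. The members were chosen with earlier results of these data known, so their count is no test against this background. Klf5 stood highest and Klf9 lowest, with a 25.3-fold ratio of their means. Both were quantified on models shorter than their M21 transcripts, as given below, and the ratio depends on those models. A TPM of 10 in both libraries was reached by 6 members (background 20.7% of all entries and 40.1% of protein-coding genes), and Klf4 reached it in replicate 2 only. No member reached 100 in both libraries (background 3.77% and 7.21%), and Klf5 did so in replicate 2 only. The median member stood at 21.6 TPM, and the median of the 13474 detected protein-coding genes at 17.8 TPM.

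**Figure D1:**
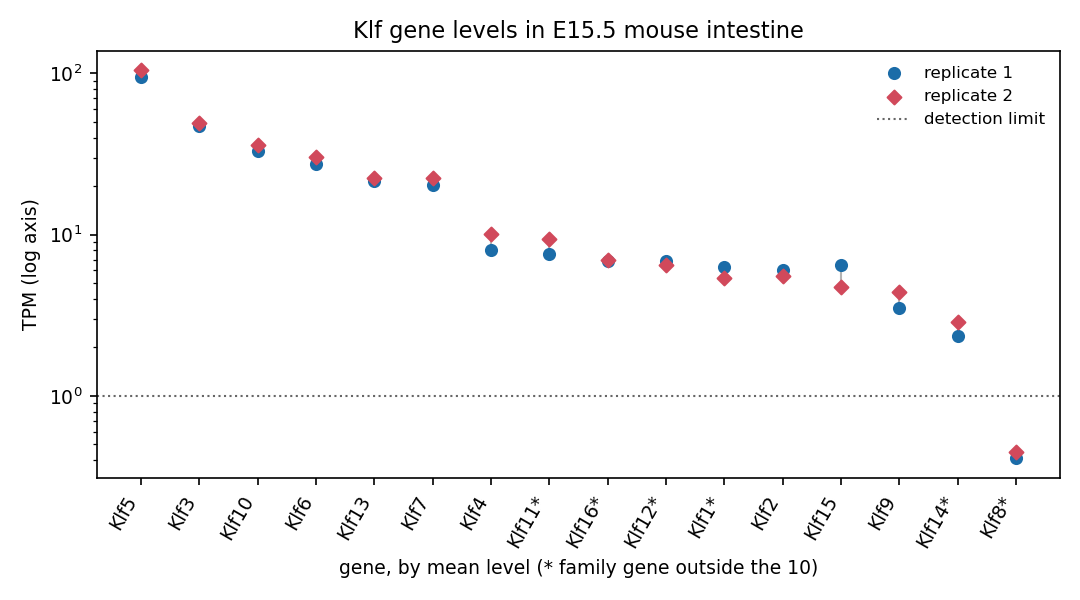
Level of each family gene with a mean above 0 in TPM (log axis), with 1 point per library and genes ordered by mean; Klf17, at 0, is not drawn. Klf5 lies near 100 TPM, 5 members lie between 20 and 50, and the other 4 lie between 3.51 and 10.1.

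Among the activator-type members, Klf5 (chr14:99298691-99315036, + strand, GRCm38) was at 95.4 and 105 TPM, from 3709 and 4737 counts. Its mean of 100 ± 6.52 TPM lay above that of 88.0% of detected protein-coding genes and made up 32.3 ± 0.498% of the summed TPM of the family. Both values lay above those of every other member, of which Klf3, next in order, reached 49.1 TPM. Klf6 (chr13:5861482-5870394, + strand), a widely expressed member first known as a core promoter element binding protein, was at 27.6 and 30.2 TPM. Klf7 (chr1:64029447-64122282, − strand), known from the developing nervous system, was at 20.4 and 22.3 TPM. Klf4 (chr4:55527143-55532466, − strand) was at 8.0 and 10.1 TPM, from 562 and 817 counts. Klf2 (chr8:72319033-72321656, + strand), which is known from endothelial cells under flow and from quiescent lymphocytes, was at 6.02 and 5.51 TPM. Klf5 therefore exceeded Klf4 in both libraries, with means of 100 and 9.07 TPM.

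Klf3 (chr5:64803388-64832901, + strand), the CtBP-binding member of the list, was at 47.1 and 49.1 TPM, a mean of 48.1 ± 1.41. The Sin3-binding members spanned a wide range. Klf10 (chr15:38291463-38300706, − strand), known as a rapid target of TGF-beta, was at 32.8 and 36.0 TPM. Klf13 (chr7:63886351-63938915, − strand) was at 21.5 and 22.4 TPM, and Klf9 (chr19:23141226-23168134, + strand), which glucocorticoid and thyroid hormone induce, at 3.51 and 4.41 TPM. Klf15 (chr6:90462576-90475238, + strand), a glucocorticoid-induced regulator of glucose and amino acid metabolism, was at 6.46 and 4.73 TPM.

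In the order Klf5, Klf3, Klf10, Klf6, Klf13, Klf7, Klf4, Klf2, Klf15, Klf9, 7 of the 9 neighbouring pairs had ranges over the libraries that did not overlap. The ranges overlapped for Klf13 and Klf7 and for Klf2 and Klf15, so neither pair was set apart. Within each library Klf13 was above Klf7, though only by 22.38 against 22.32 TPM in replicate 2. Klf2 was below Klf15 in replicate 1 and above it in replicate 2. The deposited gene models bear on these levels. Klf5 was quantified on 1721 bases where its M21 transcript has 3352, Klf3-201 on 2314 against 5221, and Klf9 on 3263 against 4486, whereas the leading transcripts of the other 7 members were within 8 bases of the M21 length.

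The family genes outside the list lay among its lower members or below them. Klf11 (7.56 and 9.42 TPM), Klf16 (6.87 and 6.97), Klf12 (6.82 and 6.44), Klf1 (6.34 and 5.37) and Klf14 (2.36 and 2.86) were detected, which gave 15 of 17 family genes in all. In mean level Klf11, Klf16, Klf12 and Klf1 lay above Klf2, Klf15 and Klf9, and the ranges of Klf11 and Klf4 overlapped. Klf8 was at 0.41 and 0.45 TPM and Klf17 had 0 counts in both libraries, where a count of 0 allows up to 3 counts in each. The 10 members together made up 90.02 ± 0.235% of the summed family TPM of 299.1 and 320.9. The list was chosen with earlier results of these data known. This share, and the place of the genes outside the list, may therefore reflect that choice. By partner class, the activator-type genes held 55.1 ± 0.539%, the Sin3-binding genes 25.3 ± 0.454%, the CtBP-binding genes 17.8 ± 0.507%, and Klf15 and Klf17 together 1.82 ± 0.485%. The order of the classes was the same in both libraries.

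**Figure D2:**
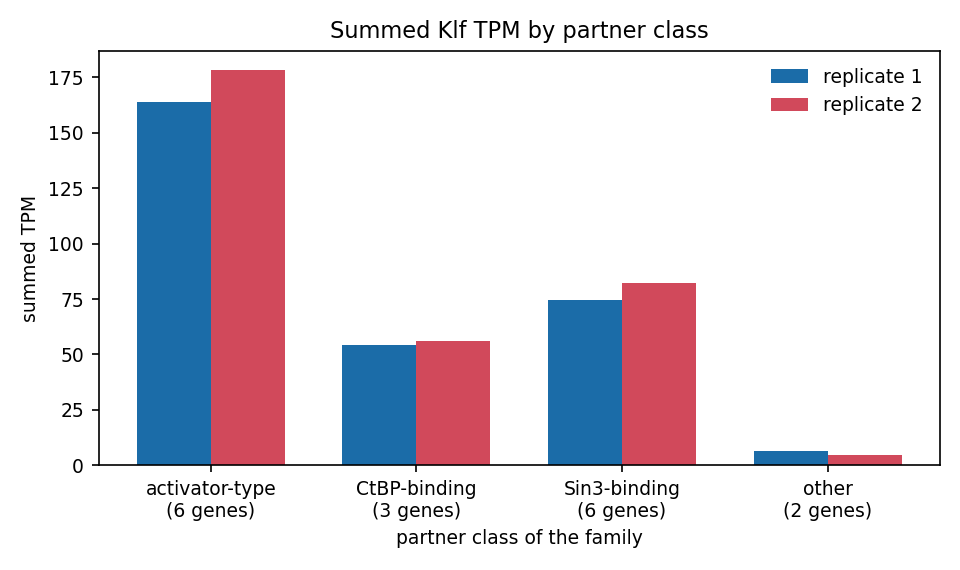
Summed TPM of all 17 family genes by partner class, with 1 bar per library. Activator-type genes sum to 163.8 and 178.1 TPM, Sin3-binding genes to 74.6 and 82.1, CtBP-binding genes to 54.3 and 56.0, and the remaining pair to 6.46 and 4.73.

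The related Sp factors carry the same kind of fingers and bind similar GC-rich sites. Of 9 Sp genes 4 were detected, against 62.7% of protein-coding genes. Sp3 was at 34.4 and 40.5 TPM, Sp2 at 11.2 and 12.8, Sp1 at 8.24 and 8.18, and Sp4 at 3.98 and 3.92. Sp5, Sp6, Sp7, Sp8 and Sp9 stayed below 1 TPM in both libraries. Sp3 thus lay within the range of the members, above Klf10 in mean (37.5 against 34.4 TPM), and Klf5 lay above every Sp gene in both libraries.

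Every gene of the partner lists was detected (background 62.7% of protein-coding genes). This list and those below were chosen with earlier results of these data known, so their counts of detected genes are no test. Among the corepressors, Ctbp1 (201.1 and 182.3 TPM) and Ctbp2 (70.7 and 71.4), the partners of Klf3, were higher than Klf3 itself. Sin3b was at 123.2 and 109.5 TPM and Sin3a, the other scaffold of the Sin3 complex, at 21.7 and 22.2. The deacetylases Hdac1 (169.1 and 168.3), Hdac2 (132.8 and 145.2) and Hdac3 (97.9 and 95.9) lay in the range of Klf5 or above. The acetyltransferases that act as coactivators were lower, with Crebbp at 20.4 and 22.7 TPM, Ep300 at 9.31 and 10.7 and Kat2b at 3.05 and 3.57. Wwp1 (7.78 and 8.86) and Fbxw7 (7.95 and 8.74), ubiquitin ligases known to act on Klf5 and Klf2 proteins, were nearly equal to each other.

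Genes known to act upstream of members were measured in the same libraries. All 12 were detected (background 62.7% of protein-coding genes), with means from 1.48 to 37.9 TPM. The highest were Nr3c1, the glucocorticoid receptor (35.5 and 40.2 TPM), Thra, a thyroid hormone receptor (37.8 and 35.7), Mapk7, the kinase ERK5 (32.1 and 30.3), and Tgfbr2, a TGF-beta receptor (27.5 and 30.5). Klf9 and Klf15, which are induced through Nr3c1 in many tissues, were at the lower end of the members, and Klf10, downstream of TGF-beta, followed Klf5 and Klf3. Mef2a (19.5 and 22.8), Mef2d (16.3 and 17.4) and Mef2c (11.1 and 13.7), which act with Mapk7 at Klf2, were chosen for mention after their values were seen. Immediate early genes, which rise fast on tissue handling and growth signals as several Klf genes do, were detected in 9 of 11 cases (background 62.7%). Jun (69.4 and 74.2 TPM), Ier2 (69.9 and 71.6), Zfp36 (32.8 and 32.5) and Junb (23.2 and 25.3) led them, and Fosb (0.05 and 0.11) and Egr2 (0.27 and 0.23) were below 1. The part of dissection and handling time in the Klf levels was not tested.

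Genes known to respond to members were all detected, 8 of 8 against 62.7% of protein-coding genes. They were Alpi, the intestinal alkaline phosphatase that Klf4 activates (109.1 and 94.9 TPM), the cell cycle inhibitor Cdkn1a (93.7 and 89.98), the Klf5 target Ccnd1, encoding cyclin D1 (54.6 and 63.8), and the endothelial Klf2 targets Thbd (38.3 and 39.4), S1pr1 (12.2 and 13.9) and Nos3 (6.15 and 6.58). Lgals3, a galectin repressed by Klf3, was at 23.9 and 19.2 TPM and the goblet cell mucin Muc2 at 13.9 and 7.94.

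The promoters were searched for the sites the family binds. RefSeq promoter windows on GRCm38.p6 were matched for 8 members, and Klf5 and Klf10 had none in the table. In the 250 bases before the RefSeq start, on either strand, GGGCGG was present in 7 of 8 (Klf9 was the exception) against 32.7% of all 32851 promoters, and CACCC in 6 of 8 against 52.0%. These windows run past the start of the leading M21 transcript by 133 bases for Klf3, 93 for Klf7, 29 for Klf2 and 7 for Klf6. The only CACCC match of Klf2 lies in that part. GGGCGG and CACCC matches can share bases. The GC content of the 8 windows ranged from 59.2% (Klf7) to 78.4% (Klf3). The background was not matched for GC content, so whether these words exceed what such windows hold was not tested. CCAAT was found in 4 of 8 (background 33.9%), TATAAA in 0 of 8 (background 12.4%) and a CArG box in 0 of 8 (background 1.47%). A MEF2 box was found in Klf2 alone among these members (background 2.92%), and it is printed because MEF2 factors are known to drive this gene and were measured above. Capitals in the 221 bases of chr8:72318812-72319032 (+ strand) mark GGGCGG, present 2 times, and the MEF2 box CTAAATTTAG, which begins 118 bases before the RefSeq start. A match is a match of letters only, and no binding was measured.
Klf2 promoter: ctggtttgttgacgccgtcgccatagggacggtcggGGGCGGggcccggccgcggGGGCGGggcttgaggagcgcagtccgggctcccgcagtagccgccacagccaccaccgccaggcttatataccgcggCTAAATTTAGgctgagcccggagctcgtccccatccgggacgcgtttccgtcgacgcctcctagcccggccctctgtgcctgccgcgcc

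The level of each member was then compared between the pools, as counts divided by the library's gene counts, with an exact Clopper-Pearson 95% interval. These intervals cover counting error only and compare the libraries, not conditions. Klf15 had 352 and 300 counts, a ratio of replicate 2 to replicate 1 of 0.718 (0.614 to 0.840), and was the 1 member of 10 with an interval below 1 (background 19.8% of 14986 detected genes). An interval above 1 was found for 5 members (background 20.6%). They were Klf9 with 266 and 389 counts and a ratio of 1.23 (1.05 to 1.45), Klf4 with a ratio of 1.23 (1.10 to 1.37), Klf10 at 1.08 (1.02 to 1.14), Klf5 at 1.08 (1.03 to 1.12) and Klf6 at 1.07 (1.02 to 1.13). The intervals of Klf2 (0.755 to 1.07), Klf7 (0.922 to 1.07), Klf13 (0.972 to 1.07) and Klf3 (0.966 to 1.08) included 1. No member differed over 1.5-fold in TPM (background 3.90%). On the scale of log2((TPM of replicate 2 + 1)/(TPM of replicate 1 + 1)), which understates the change of low genes, the members had a median of 0.13 and all detected genes a median of 0.02. By that measure Klf15, at -0.38, lay above 3.48% of detected genes and Klf4, at 0.31, above 95.4%.

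**Figure D3:**
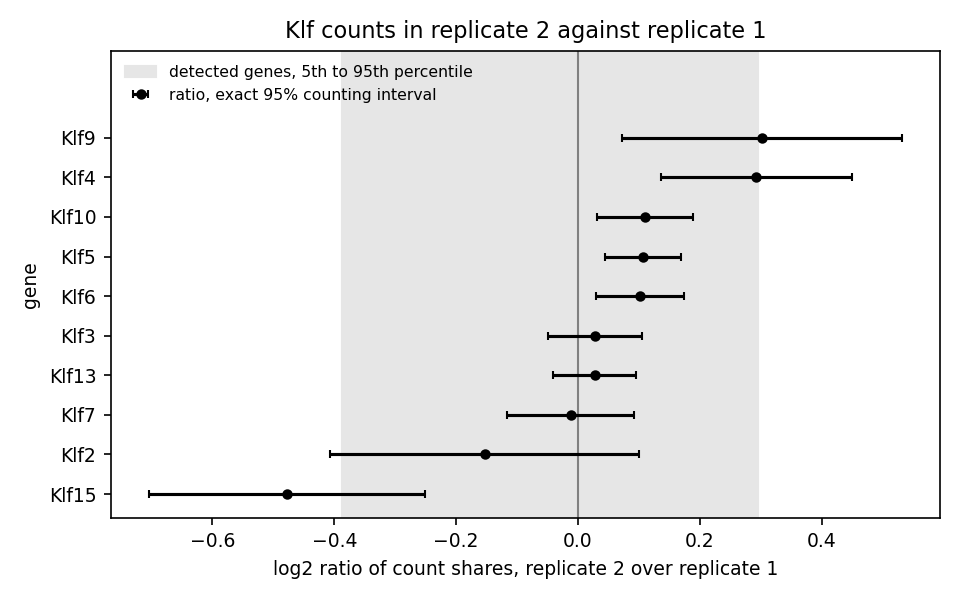
Log2 ratio of count shares, replicate 2 over replicate 1, for the 10 members, with exact 95% counting intervals; the grey band spans the 5th to 95th percentile of detected genes, from -0.39 to 0.30. Klf15 at -0.48 lies below the band. Klf9 at 0.301 lies just above the band's upper edge of 0.296, and Klf4 at 0.293 lies just inside it. The intervals of Klf2, Klf7, Klf13 and Klf3 cross 0.

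The ratios also depended on the unit and the scaling. From counts in place of TPM the members had a median of 0.065 by share of gene counts, 0.073 with TMM factors and 0.083 with DESeq2 size factors. Scaling the counts to the spike-in total raised the median of all detected genes to 0.29 and that of the members to 0.36, so that the members stayed 0.07 above all detected genes. Relative to the libraries' gene counts 7 members were higher in replicate 2 and 3 were lower, while 49.03% of all detected genes were higher. With TMM factors 7 members and 51.07% of detected genes were higher, and with DESeq2 size factors 8 members and 53.65%. Under the spike-in scaling 9 members and 92.27% of detected genes were higher. Klf2 turned from -0.15 to 0.14 under the spike-in scaling, Klf7 lay at -0.012 by count share, -0.0035 with TMM and 0.0064 with DESeq2, and Klf15 stayed lower at -0.18.

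Cell type markers moved between the same libraries, and their part in the Klf ratios was not tested. All 5 goblet cell genes, with means from 10.9 TPM (Muc2) to 673.1 TPM (Tff3), were lower in replicate 2, 1216 and 957.8 TPM in sum, while Klf4 was higher. Muc2 had the ratio 0.497 (0.432 to 0.571), with 554 and 327 counts. All 5 mesenchyme genes were higher in replicate 2, with sums in the ratio 1.12. The gut epithelium sums had the ratio 0.962 and the endothelium sums 1.02. The exocrine pancreas sums stood at the ratio 0.355, all 4 genes lower in replicate 2, and the liver sums at 0.727, all 3 lower. Klf15 moved in the same direction as these, and Klf2 at 0.899 (0.755 to 1.07) could not be set apart from no difference.

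At the transcript level, 19 transcripts of the members were quantified. Klf2, Klf5, Klf6, Klf9 and Klf10 had 1 transcript each. Of the 5 members with more, 4 had a transcript that held at least 95% of the gene's TPM in both libraries, as did 14.6% of 9781 detected protein-coding genes with more than 1 transcript. These were Klf15-201 (100% and 100%), Klf4-201 (100% and 98.4%), Klf13-201 (98.5% and 98.3%) and Klf3-201 (97.8% and 96.8%). A retained intron transcript of Klf13, Klf13-203, was the only non-coding model of a member and held 0.46% and 0.19%.

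Klf7 was the exception, and its leading transcript depended on the measure. By TPM, Klf7-201 (1477 bases) held 66.4% and 60.9% of the gene, Klf7-202 (7662 bases) 24.8% and 22.4%, and Klf7-203 (553 bases) 8.84% and 16.8%. By estimated counts, which are not divided by length, Klf7-202 led with 66.2% and 64.9%, and Klf7-201 held 32.4% and 32.2%. Such a switch between the measures was seen in 11.7% of those genes. Both libraries gave the same order by either measure.

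**Figure D4:**
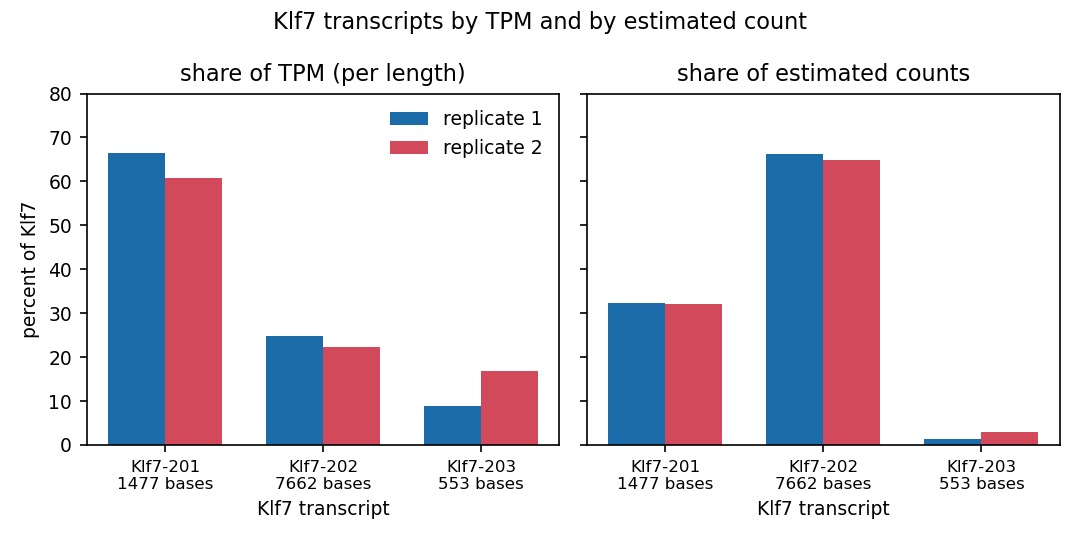
Share of Klf7 held by each of its 3 transcripts, in percent, by TPM (left) and by estimated count (right), with 1 bar per library. Klf7-201 leads by TPM with 66.4% and 60.9%, and Klf7-202 leads by count with 66.2% and 64.9%.

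The models differ in the DNA-binding part. Klf7-202 (chr1:64029447-64121491, − strand) codes for the 3 fingers, and Klf7-201 (chr1:64041926-64121482) for 2 complete fingers. They share 1089 bases, 854 of them coding, and 388 bases lie in Klf7-201 only and 6573 in Klf7-202 only. Of the 243 finger bases 197 are in Klf7-201, with 10 of the 12 cysteine and histidine codons. The remaining 46 bases are the end of the stretch, at chr1:64035719-64035764 in the last exon of Klf7-202, and are printed because they hold both histidine codons of the last finger.
Klf7-202 only: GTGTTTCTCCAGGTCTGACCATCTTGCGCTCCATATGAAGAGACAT
In TPM, Klf7-202 was at 5.04 and 4.99 and Klf7-201 at 13.5 and 13.6. Together they came to 18.6 TPM in each library, a difference of 0 as deposited. The gene's difference, 20.4 against 22.3 TPM, lay in Klf7-203, at 1.80 and 3.74 TPM from 19.6 and 47.4 estimated counts, where the deposited bounds were 0.334 to 4.09 and 0.948 to 7.07 TPM. By counts the gene's ratio was 0.992 (0.922 to 1.07). As quantified, the transcript with 3 fingers thus lay between Klf2 and Klf9 in both libraries, whereas Klf7 summed over its transcripts overlapped Klf13. The 388 bases only in Klf7-201, at chr1:64041926-64042313, lie within the last intron of Klf7-202. Total RNA can hold unspliced Klf7-202, and its part in the Klf7-201 level was not tested.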

How the data were processed

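For each library the authors deposited 1 table by gene and 1 by transcript, laid out as RSEM writes them. The quantifier, strand setting and read length they used were not given in the sources used here. A deposited readme names mm10 with GENCODE M4. Columns hold, per the file headers, expected counts, TPM, FPKM and, for transcripts, the percent of a gene's TPM. The authors made TPM and FPKM from the estimated counts and effective lengths, over all entries including spike-ins. The deposited posterior mean TPM has interval bounds of unstated level, used as a score. Deposited effective lengths are 99 bases shorter than the models.

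Symbols, positions and transcripts came from GENCODE M21 on GRCm38 by Ensembl identifier without version (42462 of 43346 entries matched), and promoters from RefSeq (GRCm38.p6). Symbols were joined and means, ranges and shares computed with Python 3.11.15 (pandas 2.3.3, scipy 1.17.1). Expected counts were rounded for ratios. The ratio interval was run on simulated Poisson counts, which hold counting error only, so that run does not cover other differences between these libraries. In R 4.3.3, edgeR 4.0.16 (TMM, expression filter) and DESeq2 1.42.0 (size factors) gave scalings only. The pseudocount was 1. Words of 31 and 100 bases were searched on both strands of all M21 transcripts. A chi-square of 18.3 per gene between the libraries over 19732 genes showed 2 different libraries. With 1 group of 2 libraries there was no test, and no interval but the counting one.

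Named were all listed Klf genes, the other Klf and Sp genes, member transcripts of at least 5%, all genes of other gene lists with 8 or fewer, and otherwise the 4 highest and those below 1. Marker lists are given by sum, with the lowest and highest gene named; some genes are not reported here. The members and lists were chosen with earlier results of these data known. Alternatives covered the limit, unit, pseudocount, scaling, filter and leaving out a library.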

Additional observations from a re-analysis of the deposited data

How the results depend on the processing

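All 10 members were detected under limits of 0.5 and 2 TPM, with posterior mean TPM, with FPKM and in each library alone. The median member level was 14.95 in FPKM, a different unit, against 21.64 TPM, and 20.94 to 22.35 TPM with 1 library left out. The order of the 10 members was the same under every alternative for levels except without replicate 2, where Klf15 and Klf2 changed places. FPKM and TPM rescaled without spike-ins differ from TPM by 1 factor per library, so they could not change the order within a library. Levels on the M21 model lengths were not among the alternatives, so the order holds for the deposited models only. The members' median log2 ratio of 0.1251 became 0.1297 with a pseudocount of 0.1. From counts in place of TPM it was 0.06478 by share of gene counts, 0.07347 with TMM, 0.08339 with DESeq2 size factors and 0.3623 with the spike-in total. Its distance from the background median was 0.1045, and 0.1111 over the 17590 genes that pass edgeR's expression filter. Leading transcripts held at least 95% in 9 members by TPM, by count and in each library alone. By posterior mean TPM they did so in 8, and Klf15-201 was at 94.98% and 95.06%. Of the members, 5 had 1 deposited transcript each, so no setting could change their result. Among the 5 with more, Klf7 alone fell short by TPM, by count and in each library alone. By posterior mean TPM Klf7 and Klf15 fell short. By TPM in both libraries, 14.6% of detected protein-coding genes with more than 1 transcript reached this limit. For Klf7, Klf7-201 held 63.64% of TPM and 32.26% of counts, Klf7-202 23.57% and 65.57%, and Klf7-203 12.79% and 2.168%, because counts are not divided by length. Klf5 made up 32.26% of the family's TPM, 35.83% of the 10 members alone and 31.91% to 32.61% with 1 library left out. No paired analysis was possible because there is only 1 group. The number of libraries limits every statement on the spread, and low counts limit the ratios of Klf2, Klf9 and Klf15.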
